A study of Homo sapiens with 36 samples.

Results

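The 26S proteasome is the complex that breaks down proteins tagged with ubiquitin, and the RNA of 33 proteasome genes was followed here over 3 days of culture. The set holds 32 subunit genes, PSMA1 to PSMA7, PSMB1 to PSMB7, PSMC1 to PSMC6, 11 PSMD genes and ADRM1, and NFE2L1, a transcription factor gene. They were taken by gene symbol. Of 74628 rows in the table of counts, 33 carried these symbols, and all 33 were among the 27553 genes that passed the filter on low counts.

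The cells were Jurkat, a human T-lymphocyte leukaemia line, and every group stably expressed dCas9-VP64, a Cas9 without nuclease activity that is joined to a transcriptional activator (CRISPR activation, with mCherry named in the genotype). They received a lentiviral guide against RELA (sgRELA) or a guide labelled non-targeting (sgControl), and puromycin for 3 days. The 6 groups were these 2 guides harvested on day 5, 6 or 7 after transduction, with 3 biological replicates each and 2 RamDA-seq libraries per RNA sample. RamDA-seq amplifies total RNA along whole transcripts, here from 100 pg, and both libraries of a sample were summed before any test. Each guide name stands for 1 guide as far as the labels say. The labels do not say whether the 3 days were sampled from the same cultures, nor whether they were processed together, so a difference between days cannot be told apart from a difference in handling.

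The proteasome has a barrel-shaped core, the 20S particle, and a cap, the 19S particle. The core stacks rings of alpha subunits (PSMA genes), which form the gate, and rings of beta subunits (PSMB genes), of which PSMB5, PSMB6 and PSMB7 carry the proteolytic sites. In the cap, a ring of ATPases (PSMC genes) unfolds substrates, while the non-ATPase subunits (PSMD genes and ADRM1) bind ubiquitin, remove it and hold the cap together. NFE2L1 (NRF1) encodes a factor of the endoplasmic reticulum that is normally degraded, and that is released and activates proteasome genes through antioxidant response elements when proteasome activity is short.

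The core of that element, TGACNNNGC, was searched on both strands from 250 bases before to 50 bases after each start in the RefSeq promoters (GRCh38.p14). The promoter table held 36 promoters of 28 members, and none under the names PSMA7, PSMB1, PSMB6, PSMB7 and PSMD4. The letters occurred in 9 of the 36 promoters (25%), which belong to ADRM1, PSMA4, PSMB3, PSMC4, PSMC5, PSMD1, PSMD12 and PSMD3, and in 13.3% of all 35116 promoters of the table. The pentamer CCAAT, searched in the same way, occurred in 18 of the 36 (50%) and in 34.6% of all. In ADRM1, PSMB3, PSMD12 and PSMD3 the match lay before every RefSeq start of the gene. Their windows are printed on the gene's strand with the match in capitals, because they show how the letters inside the fixed core differ between members.
ADRM1, chr20:62302739-62302787, plus strand, 137 to 129 bases before the start: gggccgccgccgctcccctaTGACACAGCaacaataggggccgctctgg
PSMB3, chr17:38752617-38752665, plus strand, 104 to 96 bases before the start: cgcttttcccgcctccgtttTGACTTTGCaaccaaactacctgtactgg
PSMD12, chr17:67366714-67366762, minus strand, 165 to 157 bases before the start: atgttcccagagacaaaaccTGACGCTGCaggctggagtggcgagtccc
PSMD3, chr17:39980750-39980798, plus strand, 37 to 29 bases before the start: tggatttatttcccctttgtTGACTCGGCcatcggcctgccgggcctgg
A match describes these letters and is neither a binding site nor a cause of the values that follow.

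Libraries held 7586205 to 16124473 counts, and RNA samples 18769530 to 29503934. RELA, the target, was at 31.2, 39.3 and 29.3 CPM (TMM-scaled counts relative to library size) in sgControl on day 5 and at 318, 263 and 299.7 in sgRELA. Its log2 fold change between guides was 3.14, 3.07 and 2.36 on days 5, 6 and 7 (adjusted p = 1.08e-15, 2.49e-15 and 7.89e-13, edgeR), so the labels held. All 12 T-cell markers listed had a mean of at least 1 CPM over the samples, against 0 of 4 myeloid, 0 of 3 erythroid and 0 of 3 epithelial markers. Of the other-type markers, CD79A (B cell) and COL1A1 (fibroblast) had such a mean, while ITGAM, CSF1R, LYZ and KRT8 passed 1 CPM in single samples, at most at 2.90, 2.36, 1.12 and 1.55 CPM. CD79A was higher in sgRELA, by 1.65, 1.37 and 1.47 on the log2 scale on days 5, 6 and 7. In 2 sgControl libraries, library 1 of day 5 replicate 2 and library 1 of day 6 replicate 1, the fewest genes were detected (25398 and 26526, against 26605 in the next library and up to 29057). No threshold sets these 2 apart: they were taken from an earlier analysis of these data. Results are given with them. The counts of calls between days, and values of a few single genes, are also given without them.

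The subunits moved together from day to day, and in the same direction under both guides. The 32 subunit genes summed to 3218, 3271 and 3339 CPM in the sgControl samples of day 5, 2562, 2677 and 2572 on day 6 and 4072, 4172 and 4058 on day 7. In sgRELA the sums were 3188, 3273 and 3219.8 on day 5, 2777, 2769 and 2733 on day 6 and 4265, 4240.4 and 4199 on day 7. Every day-6 sample was below every day-5 sample, and every day-7 sample was above both, under either guide. As a share of all counts, the 32 genes took 0.265% to 0.286% on day 6 and 0.396% to 0.414% on day 7. In bulk RNA, a change in the amount of RNA per cell and a change in the cells present cannot be told apart.

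**Figure D1:**
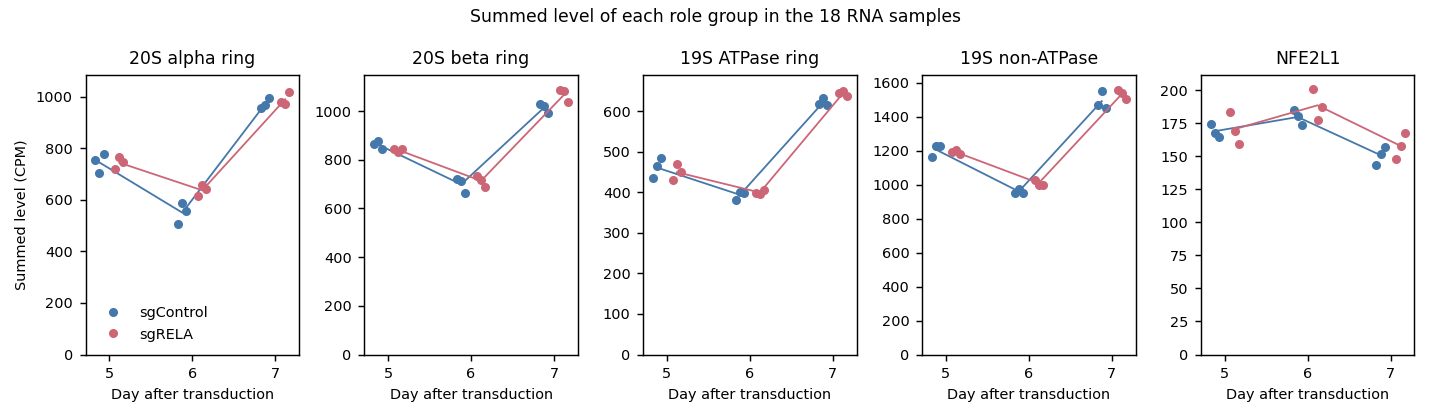
Summed level (CPM, linear axis from 0) of the 7 alpha, 7 beta, 6 ATPase and 12 non-ATPase subunit genes and of NFE2L1 against day after transduction. Points are the 18 RNA samples, lines join the means of 3 samples, and blue and red mark sgControl and sgRELA. All 4 subunit groups dip on day 6 and are highest on day 7, while the mean of NFE2L1 is lowest on day 7.

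Between day 6 and day 7, nearly the whole set rose. In sgControl 27 of 33 genes were called higher (adjusted p under 0.05, edgeR quasi-likelihood test with Benjamini-Hochberg adjustment over all genes) and 1 lower, against 8.25% and 6.31% of all genes tested. In sgRELA 29 were called higher and 1 lower, against 7.21% and 5.02% of all genes. The median log2 fold change of the set was 0.67 in sgControl and 0.59 in sgRELA, beside -0.07 and -0.06 over all genes tested. Among the 9522 genes with a mean level in the range of the set, 12.4 to 369 CPM, 20.3% and 17.9% were called higher and the medians were 0.04 and 0.03. The gene called lower was NFE2L1 under both guides. With library replicate 1 of each RNA sample alone, 11 genes of the set were called higher in sgRELA. In that setting 961 of all genes were called there in either direction, against 1986 higher and 1382 lower with both libraries.

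The drop from day 5 to day 6 was smaller and was called for fewer genes. In sgControl 16 of 33 genes were called, each of them lower, beside 5.58% of all genes called lower and 3.29% higher. In sgRELA 6 were called, all lower, beside 4.34% lower and 2.57% higher. Among the 9522 genes in the set's range of level, larger shares were called lower, 13.9% in sgControl and 11% in sgRELA. The medians of the set were -0.34 and -0.22, and those of all genes 0.04 and 0.03. PSMA1, PSMA7, PSMB1, PSMD2 and PSMD14 were called lower under both guides, as were 2.99% of all genes. In sgRELA the PSMA7 call stood in 3 of 15 other settings and the PSMB1 call in 4, with the direction kept. Whether the drop differed between guides was tested by the interaction described with the guides.

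From day 5 to day 7 the net change was a rise. In sgControl 18 of 33 genes were called, all higher, where 6.65% of all genes were called higher and 6.36% lower. In sgRELA 19 were called, all higher, where the figures for all genes were 6.35% and 6.06%. Among the 9522 genes in the set's range of level, 14.6% were called higher in sgControl and 14.3% in sgRELA. These counts depended on the libraries. With library replicate 1 alone 3 of the set were called under each guide. Over all genes that setting gave 820 calls in sgControl and 669 in sgRELA, in either direction. With library replicate 2 alone 10 of the set were called in sgControl (1 of them lower), and without sgControl day 5 replicate 3, 11 were. Medians of the set were 0.32 and 0.42, beside -0.01 for all genes under either guide. In both guides 17 were called higher between days 5 and 7 (4.39% of all genes). Between days 6 and 7, 26 were called higher in both guides (5.78% of all genes), and NFE2L1 lower in both (2.95%). The 3 comparisons of days share samples: a high or low day 6 enters the first 2 with opposite signs. For single genes below, days without overlap are to be read beside the share of all genes. By pair of days and guide, 11.3% to 15.1% of all genes were so separated in a given direction.

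**Figure D2:**
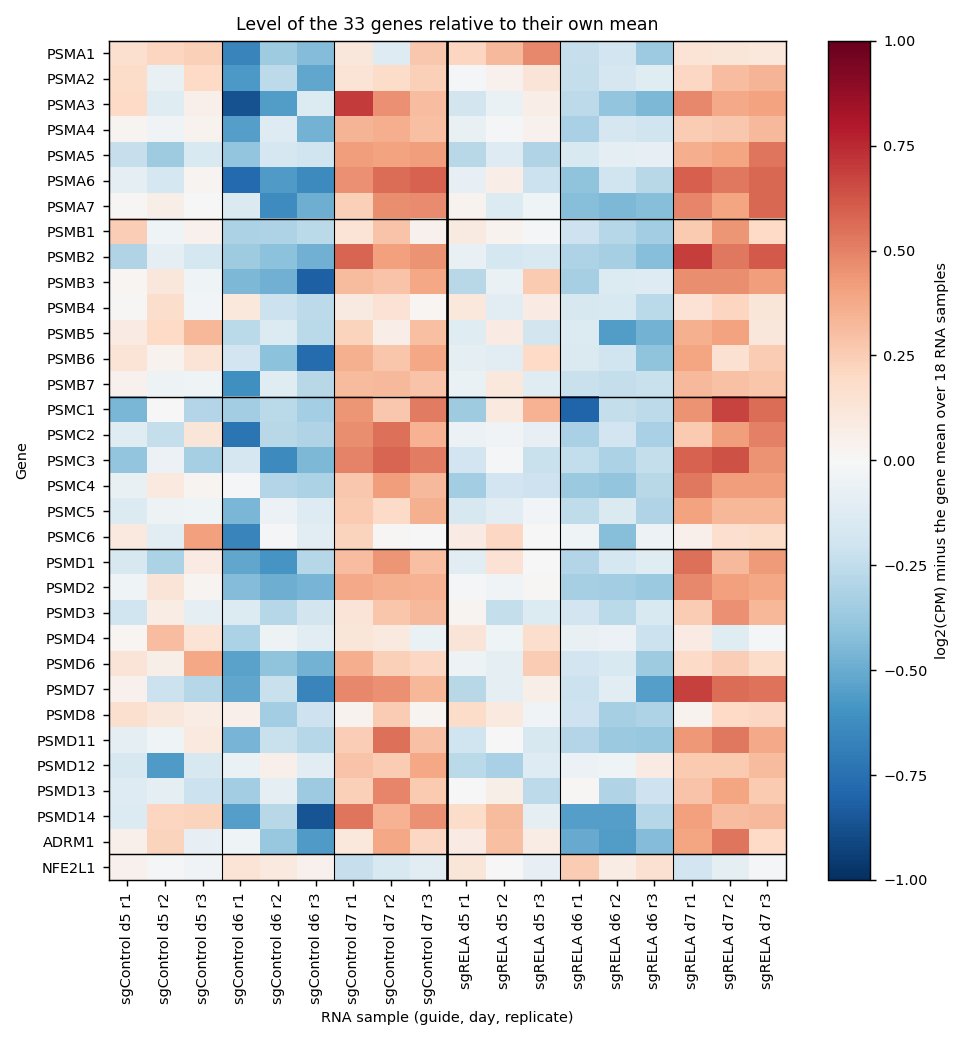
Level of each of the 33 genes (rows, grouped by role) in each of the 18 RNA samples (columns), as log2(CPM) minus the gene's mean over all samples. Red is above and blue below the mean. The day-6 columns are mostly blue and the day-7 columns mostly red under both guides, and the NFE2L1 row, the last, is blue on day 7.

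Library choice weighed on these counts. When only library replicate 1 of each RNA sample was used, 4 genes were called lower between days 5 and 6 in sgControl and none in sgRELA by edgeR. By DESeq2 on the summed libraries the counts were 20 and 8. Calls over all genes moved too: 430 and 196 in either direction with library replicate 1 alone, and 3447 and 2883 with DESeq2. With both libraries summed, edgeR called 907 of all genes higher and 1538 lower in sgControl, and 708 and 1196 in sgRELA. Scaled by library totals without TMM factors, the medians of the set were -0.26 and -0.17 between days 5 and 6 and 0.56 and 0.51 between days 6 and 7. That scaling moved the median of all genes in sgControl to 0.12 between days 5 and 6 and to -0.17 between days 6 and 7. It also changed the share of all calls that were higher, from 37.1% to 55.5% between days 5 and 6 in sgControl and from 37.2% to 49.1% in sgRELA. Between days 6 and 7 that share went from 56.7% to 40.3% in sgControl and from 59.0% to 44.6% in sgRELA.

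Other measures moved with the days too, and their part in these results was not tested. The 12 T-cell markers summed to 2581 to 2973 CPM on day 5, 2745 to 3452 on day 6 and 3615 to 3895 on day 7. Mitochondrial genes took 6.38% to 10.9% of the counts of a library on day 5, 7.10% to 9.998% on day 6 and 7.33% to 7.95% on day 7, and 10 of the 12 day-6 libraries were above every day-7 library. Of the other-type lists, the fibroblast list summed to 4.08 to 9.22 CPM on day 5, 6.40 to 10.3 on day 6 and 1.95 to 4.86 on day 7, with COL1A2 at 0 counts. COL1A1 was called lower on day 7 than on day 6 under both guides, with log2 fold changes of -0.98 and -1.37. The B-cell, myeloid and epithelial lists overlapped between days within each guide, and the erythroid list summed to at most 0.0914 CPM. Without the 2 libraries with few detected genes, the counts were 15 lower (days 5 and 6), 29 higher (days 6 and 7) and 18 higher (days 5 and 7) in sgControl. In sgRELA they were 7, 30 and 21.

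The alpha ring had the deepest dip in sgControl. Its 7 genes summed to 745 ± 38.4 CPM (SD, n = 3) on day 5, 550.3 ± 41.5 on day 6 and 972 ± 20.1 on day 7. In sgRELA the sums were 744 ± 23.1, 637 ± 20.8 and 989.9 ± 25.4. The sgControl sums of days 5 and 6 each include a library whose alpha sum stood apart as low (619 and 386 CPM). Between days 5 and 6, 6 of 7 were called lower in sgControl and 2 in sgRELA (5.58% and 4.34% of all genes), with medians of -0.54 and -0.23. All 7 were called higher between days 6 and 7 under both guides (8.25% and 7.21% of all genes), with medians of 0.71 and 0.54. Between days 5 and 7, 5 of 7 were called higher under each guide (6.65% and 6.35% of all genes).

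PSMA6 (ENSG00000100902, chr14:35278633-35317493, plus strand, GENCODE v29, GRCh38) had the largest rise of the alpha subunits from day 6 to day 7 in sgControl. Its samples were at 180.4, 171 and 196 CPM on day 5, 112, 129.8 and 124 on day 6 and 264, 284 and 290.4 on day 7 in sgControl. In sgRELA they were at 182, 202 and 166, 145, 168 and 159 and 291, 278 and 287. The day-7 samples were above all others, and in sgControl those of day 6 were below all others. Day 7 against day 6 was 1.19 ± 0.09 on the log2 scale in sgControl (SE, adjusted p = 2.21e-11, edgeR) and 0.86 ± 0.09 in sgRELA (adjusted p = 1.60e-08). Day 6 against day 5 was -0.58 in sgControl (adjusted p = 4.27e-05, edgeR), and -0.22 in sgRELA did not pass (adjusted p = 0.15).

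PSMA5 (ENSG00000143106, chr1:109399031-109426427, minus strand), another alpha subunit, rose without a dip before it. It was at 122, 112 and 129 CPM on day 5, 109, 127 and 124 on day 6 and 191, 189 and 191 on day 7 in sgControl. The sgRELA samples were at 118, 131 and 116, 128, 134 and 135 and 184, 188 and 208. Days 5 and 6 overlapped under both guides, and day 7 stood above them. Over the whole span PSMA5 rose by 0.66 in sgControl (adjusted p = 3.51e-06, edgeR) and by 0.67 in sgRELA (adjusted p = 2.77e-06) on the log2 scale.

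PSMA1 dropped the most of the set from day 5 to day 6 in sgControl, and its net change to day 7 was not called. Its day-5 samples were at 97.2, 101 and 103 CPM in sgControl and 101, 109 and 121 in sgRELA. On day 7 they were at 94.3, 79.5 and 105 and 96.0, 94.6 and 93.5. PSMA1 fell by 0.68 in sgControl and by 0.60 in sgRELA to day 6, and day 7 against day 5 was -0.11 and -0.22 (adjusted p = 0.61 and 0.21, edgeR). The net change of PSMA2 was 0.08 and 0.23, neither called. PSMA3, PSMA4 and PSMA7 were called higher on day 7 than on day 5 under both guides, by 0.29 to 0.53 on the log2 scale. Of 15 other settings, the PSMA4 call stood in 5 for sgControl and 4 for sgRELA, the PSMA3 call in 8 for each, and the PSMA7 call in 6 for sgControl and 14 for sgRELA, with the direction kept in all.

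The beta ring followed the same course as the alpha ring. Its 7 genes summed to 862 ± 16.1 CPM (SD, n = 3) on day 5, 699 ± 29.8 on day 6 and 1015 ± 18.7 on day 7 in sgControl. In sgRELA the sums were 841 ± 8.29, 714 ± 23.4 and 1067 ± 27.0. In the step to day 6, 5 of 7 were called lower in sgControl and 1 in sgRELA, PSMB1 (5.58% and 4.34% of all genes). In the step to day 7, 6 of 7 were called higher in sgControl and all 7 in sgRELA (8.25% and 7.21% of all genes), with medians of 0.63 and 0.58. Between days 5 and 7, 2 of 7 in sgControl (PSMB2 and PSMB7) and 3 in sgRELA (PSMB2, PSMB3 and PSMB7) were called higher. Over all genes, 6.65% and 6.35% were.

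Of the 3 catalytic subunits only PSMB7 was called between days 5 and 7, and a difference between the 3 genes was not tested. PSMB5 (ENSG00000100804, chr14:23016543-23035230, minus strand), the chymotrypsin-like site, was at 60.3, 65.2 and 71.5 CPM on day 5, 47.3, 51.7 and 47.2 on day 6 and 66.5, 59.7 and 70.3 on day 7 in sgControl. In sgRELA its samples were at 52.4, 60.3 and 49.996, 51.6, 38.7 and 40.9 and 72.8, 75.0 and 61.5. Day 7 and day 5 overlapped in sgControl and did not overlap in sgRELA. Day 7 against day 5 was -0.00 ± 0.13 in sgControl (SE, adjusted p = 0.992, edgeR) and 0.36 ± 0.13 in sgRELA (adjusted p = 0.0546). Neither passed, and the difference between the 2 guides was not called by the interaction test.

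PSMB6 (ENSG00000142507, chr17:4796144-4798503, plus strand), the caspase-like site, was at 50.4, 47.2 and 50.6 CPM on day 5, 40.2, 34.7 and 26.9 on day 6 and 58.7, 55.6 and 60.0 on day 7 in sgControl. The sgRELA samples were at 43.1, 42.5 and 52.9, 41.7, 40.0 and 34.8 and 60.4, 51.0 and 54.7. It rose between days 6 and 7 by 0.78 ± 0.14 (adjusted p = 1.05e-04, edgeR) and 0.51 ± 0.14 (adjusted p = 0.0104). The net change from day 5 was 0.23 and 0.26, neither called.

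PSMB7 (ENSG00000136930, chr9:124353466-124415444, minus strand), the trypsin-like site, ended above its start. Its sgControl samples were at 187, 175 and 175 CPM on day 5, 118, 167 and 149.5 on day 6 and 225, 226 and 221 on day 7. In sgRELA they were at 173, 195 and 166, 155, 154 and 156 and 226, 222 and 219.6. All 6 day-7 samples were above all 12 earlier ones. For day 7 against day 5 the log2 fold change was 0.32 ± 0.09 (adjusted p = 0.0195, edgeR) and 0.32 ± 0.09 (adjusted p = 0.0207). Each of these 2 calls was lost in 6 of the other settings tried, with the direction kept.

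PSMB2 (ENSG00000126067, chr1:35599544-35641844, minus strand), a non-catalytic beta subunit, had the largest net rise of the beta ring. It was at 115, 133 and 126 CPM on day 5, 111, 107 and 102 on day 6 and 213, 189 and 194 on day 7 in sgControl. In sgRELA its samples were at 135, 126 and 128, 114, 113 and 106 and 229, 204 and 217. Days 5, 6 and 7 did not overlap under either guide. Day 7 against day 5 was 1.59-fold in sgControl (log2 0.67 ± 0.09, adjusted p = 1.54e-06, edgeR) and 1.67-fold in sgRELA (log2 0.74 ± 0.09, adjusted p = 2.66e-07). PSMB4, the beta gene with the highest level per length, changed least between days 6 and 7, by 0.20 in sgControl (not called) and 0.35 in sgRELA (called).

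**Figure D3:**
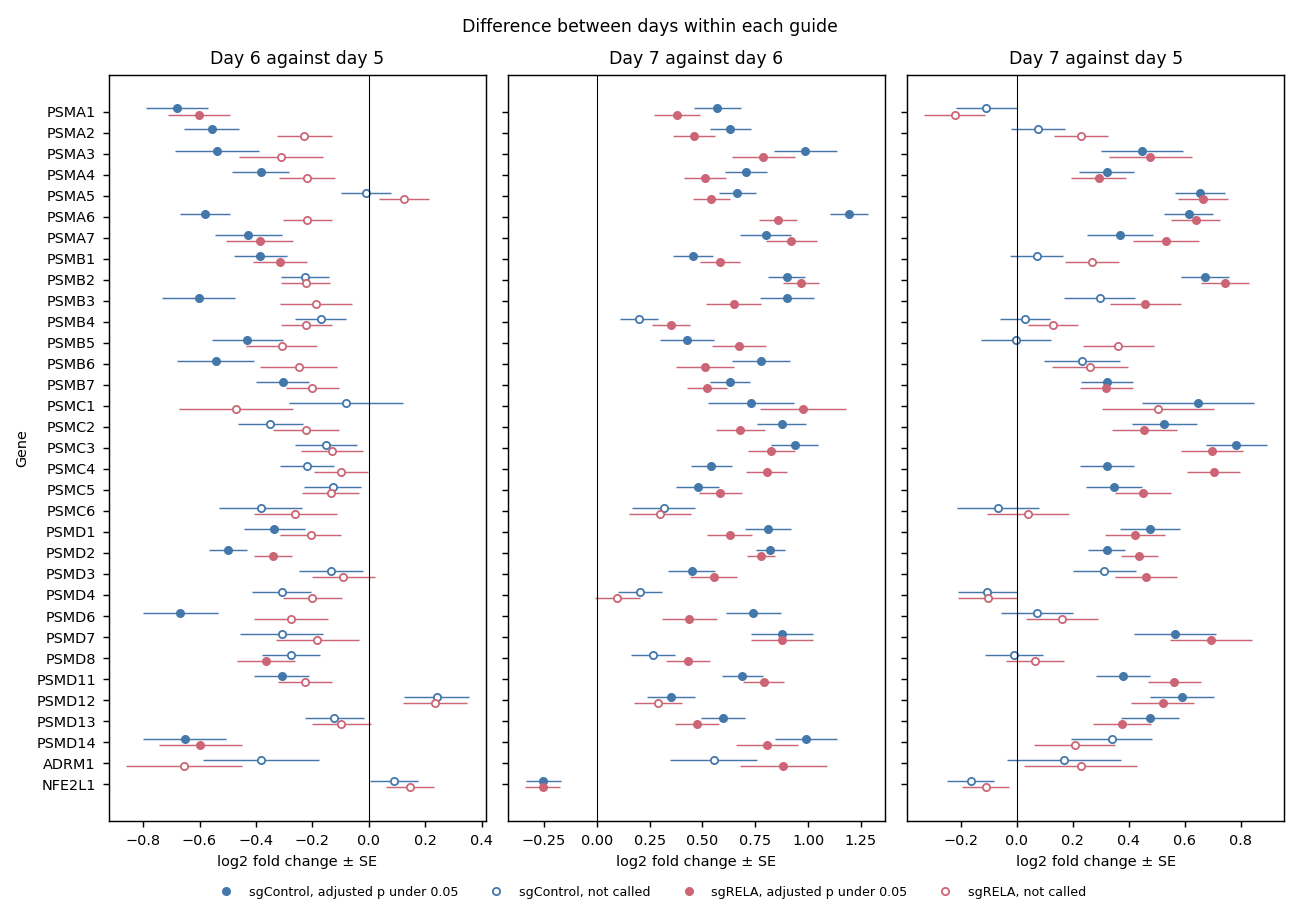
Log2 fold change ± SE between days for each of the 33 genes, within sgControl (blue) and sgRELA (red), on separate horizontal scales for the 3 pairs of days. Filled points had an adjusted p under 0.05 over all genes and open points did not. Between days 6 and 7 all subunit genes lie right of 0 and NFE2L1 left of it, and PSMD12 lies right of 0 in all 3 panels.

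The ATPase ring was the subunit group with no gene called between days 5 and 6 by edgeR, under either guide. Over all genes, 5.58% and 4.34% were called lower in that step. Among genes in the set's range of level, 13.9% and 11% were. By sign alone all 6 ATPase genes were lower under both guides, with medians of -0.19 and -0.18. Medians of the alpha, beta and non-ATPase groups were -0.54, -0.38 and -0.31 in sgControl and -0.23, -0.22 and -0.22 in sgRELA. At an unadjusted p under 0.05, PSMC2, PSMC4 and PSMC6 were lower in sgControl and PSMC1 in sgRELA. The 6 genes summed to 461 ± 25.0 CPM (SD, n = 3), 394 ± 10.3 and 622 ± 8.86 on days 5, 6 and 7 in sgControl, and to 449.6 ± 19.02, 399.5 ± 4.47 and 644 ± 6.48 in sgRELA. Between days 6 and 7, 5 of 6 were called higher under each guide (8.25% and 7.21% of all genes), with medians of 0.64 and 0.74. Against day 5, day 7 was called higher for 5 of 6 in sgControl and 4 in sgRELA, with medians of 0.44 and 0.48. Over all genes, 6.65% and 6.35% were called higher there. PSMC6 was not called in either step under either guide, with a net change of -0.07 and 0.04.

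PSMC3 (ENSG00000165916, chr11:47418769-47426473, minus strand) had the largest net rise of the set in sgControl. Its samples were at 80.2, 102 and 84.1 CPM on day 5, 94.2, 67.9 and 77.3 on day 6 and 149, 158 and 151 on day 7. In sgRELA they were at 92.5, 105 and 90.8, 89.3, 84.8 and 89.5 and 159, 164 and 144. In sgControl days 5 and 6 overlapped, and day 7 lay well above both under each guide. Day 7 against day 5 was 1.72-fold (log2 0.78 ± 0.11, adjusted p = 5.83e-06, edgeR) and 1.62-fold (log2 0.70 ± 0.11, adjusted p = 3.39e-05).

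PSMC2 (ENSG00000161057, chr7:103344254-103369395, plus strand), another ATPase of the ring, was at 81.4, 74.8 and 96.2 CPM on day 5, 53.4, 72.9 and 71.9 on day 6 and 122, 129 and 113 on day 7 in sgControl. The sgRELA samples were at 85.1, 86.4 and 83.4, 70.7, 77.2 and 70.4 and 106, 118 and 125. Days 6 and 7 were far apart, by 0.88 ± 0.12 (adjusted p = 1.33e-06, edgeR) and 0.68 ± 0.12 (adjusted p = 7.86e-05) on the log2 scale. PSMC1 was the least covered ATPase gene, with 7060 counts in all, and NRDE2, a gene on the opposite strand that shares exonic sequence with it, had 34857. The strand setting of the counting is not given in the sources used here, so reads of such pairs may have been split either way.

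The non-ATPase cap genes included the member with the highest mean CPM and a lid subunit without a dip. Their 12 genes summed to 1207 ± 35.7 CPM (SD, n = 3), 960.3 ± 12.8 and 1492 ± 54.0 on days 5, 6 and 7 in sgControl. The sgRELA sums were 1192 ± 14.3, 1009 ± 18.2 and 1533 ± 25.1. On day 6, 5 of 12 were called lower than on day 5 in sgControl and 3 in sgRELA (5.58% and 4.34% of all genes). On day 7, 9 and 10 were called higher than on day 6 (8.25% and 7.21% of all genes), with medians of 0.64 and 0.59. Against day 5, 6 and 7 were called higher on day 7 (6.65% and 6.35% of all genes).

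PSMD2 (ENSG00000175166, chr3:184298709-184309054, plus strand), a scaffold subunit of the cap base, had the highest mean CPM of the 33 genes. It was at 349.8, 393 and 367 CPM on day 5, 267, 256 and 261 on day 6 and 467, 461 and 458 on day 7 in sgControl. In sgRELA it was at 356, 352 and 363, 286, 283 and 278 and 501, 479 and 470.5. The 3 days did not overlap under either guide. It fell by 0.50 (adjusted p = 6.23e-06, edgeR) and 0.34 (adjusted p = 0.00107) to day 6 and then rose by 0.82 (adjusted p = 1.35e-10) and 0.78 (adjusted p = 4.40e-10) on the log2 scale. PSMD1, the other scaffold of the base, had the same signs, with -0.34 and 0.81 in sgControl and -0.21 (not called) and 0.63 in sgRELA. The PSMD1 call of a fall in sgControl stood in 5 of 15 other settings, with the direction kept.

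PSMD14 (RPN11), the deubiquitinase of the lid, showed one of the widest swings. Its samples were at 39.2, 49.8 and 50.2 CPM on day 5, 29.4, 35.4 and 23.7 on day 6 and 62.3, 54.7 and 59.2 on day 7 in sgControl, and at 48.8, 53.5 and 40.2, 29.4, 29.4 and 35.3 and 57.3, 53.3 and 53.8 in sgRELA. The day-6 samples were the lowest under both guides. The log2 fold change was -0.65 and then 0.99 in sgControl, and -0.60 and then 0.81 in sgRELA, and all 4 were called.

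PSMD12 (ENSG00000197170, chr17:67337916-67366627, minus strand), a lid subunit, did not dip. It was at 57.4, 43.3 and 57.5 CPM on day 5, 61.3, 66.3 and 59.3 on day 6 and 78.2, 76.4 and 83.9 on day 7 in sgControl. In sgRELA it was at 53.1, 51.2 and 58.6, 61.5, 62.2 and 67.8 and 76.8, 77.0 and 80.1. Each day lay above the day before it, without overlap, under both guides. Day 6 against day 5 was 0.24 (adjusted p = 0.219, edgeR) and 0.23 (adjusted p = 0.259), neither called. Over the whole span, day 7 against day 5, PSMD12 rose by 0.59 ± 0.11 (adjusted p = 4.44e-04, edgeR) and 0.52 ± 0.11 (adjusted p = 0.00176).

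PSMD4 and ADRM1, which are ubiquitin receptors of the cap, were less uniform. PSMD4 (RPN10) was not called in any comparison of days: it was at 78.3, 94.3 and 90.8 CPM on day 6 and 106, 104 and 93.2 on day 7 in sgControl, which overlapped, and its log2 fold change was 0.20 there and 0.10 in sgRELA. ADRM1 (RPN13) was at 12.8, 14.9 and 12.7 CPM on day 5, 8.51, 8.19 and 8.94 on day 6 and 15.8, 17.5 and 13.9 on day 7 in sgRELA. ADRM1 rose between days 6 and 7 by 0.88 ± 0.21 in sgRELA (adjusted p = 0.00322, edgeR), and 0.55 ± 0.21 in sgControl did not pass (adjusted p = 0.0705). Day 6 against day 5 was not called for ADRM1 in sgRELA by edgeR with all libraries. Without the 2 libraries with few detected genes it was called lower (-0.66, adjusted p = 0.0418, edgeR). DESeq2 also called ADRM1 lower there (adjusted p = 0.00657). It was the least counted member, with 5296 counts in all, and LAMA5 on the opposite strand overlaps it. PSMD8 was called higher between days 6 and 7 in sgRELA alone (0.43, against 0.27 in sgControl), and its guide-by-day test was not called. PSMD3, PSMD6, PSMD7, PSMD11 and PSMD13 were called higher between days 6 and 7 under both guides, by 0.44 to 0.88. In sgRELA the PSMD6 call stood in 7 of 15 other settings, with the direction kept.

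**Figure D4:**
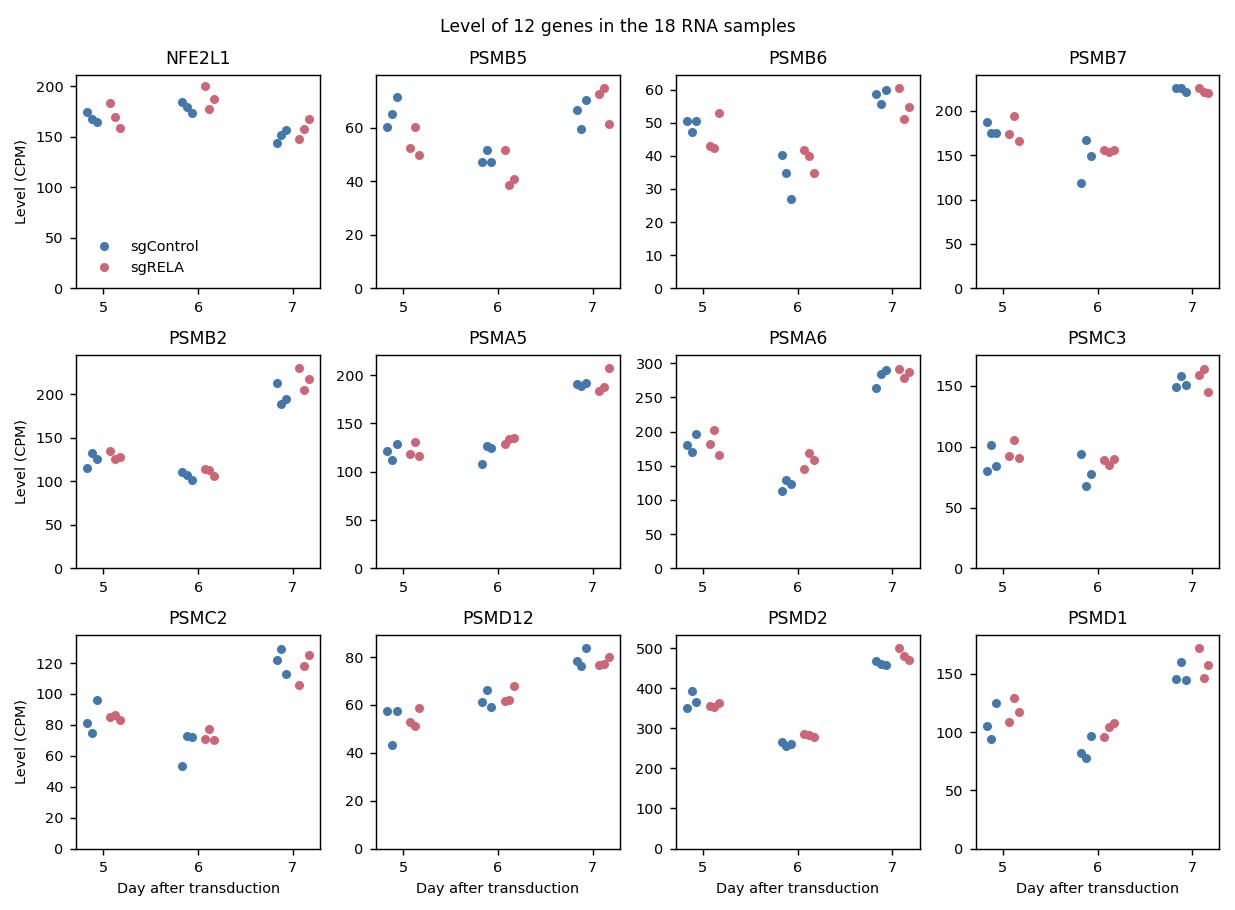
Level (CPM, linear axes from 0) of NFE2L1, the 3 catalytic subunit genes and, per role group, the 2 subunit genes whose day-7 and day-5 levels in sgControl differed with the lowest p. Points are the 18 RNA samples against day after transduction, blue for sgControl and red for sgRELA. PSMA5 and PSMD12 lack the day-6 dip of PSMA6 and PSMD2, and NFE2L1 lies lower on day 7 than on day 6.

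NFE2L1 (ENSG00000082641, chr17:48048329-48061487, plus strand) was the member that fell as the subunits rose. It was at 174, 168 and 165 CPM on day 5, 185, 180.1 and 174 on day 6 and 144, 152 and 157 on day 7 in sgControl. In sgRELA its samples were at 183, 169 and 159, 201, 177 and 187 and 148, 158 and 168. Day 7 lay below day 6 without overlap under both guides. The log2 fold change was -0.25 ± 0.08 (adjusted p = 0.0389, edgeR) and -0.26 ± 0.08 (adjusted p = 0.0411). Both are near the threshold: of 15 other settings the call stood in 4 for sgControl and in 5 for sgRELA, with the direction kept in all. Leaving out any 1 of the 6 sgControl samples of these days ended it, and without the 2 libraries with few detected genes the value there was -0.19 (adjusted p = 0.152, edgeR). Day 6 against day 5 was 0.09 and 0.15, and day 7 against day 5 -0.16 and -0.11, none called. NFE2L1 is regulated largely as a protein, which RNA levels do not show.

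Levels among members spanned a wide range once divided by length. Per kilobase of merged exons (GENCODE v29), the alpha genes had a mean level of 14.9 (PSMA3) to 35.1 (PSMA7) CPM per kb, with a median of 25.6. The beta genes had 30.5 (PSMB2) to 115 (PSMB4), with a median of 47.5. The ATPase genes had 2.67 (PSMC1) to 48.6 (PSMC4) and the non-ATPase genes 4.51 (PSMD6) to 67.7 (PSMD2), with medians of 24.2 and 16.2. NFE2L1 was at 29.1. Merged exons include those of rare isoforms, which lowers a value per kb. Within groups the median SD of log2 CPM over the 33 genes was 0.12, beside 0.17 for the 9522 genes in the same range of level.

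Some counts of the set may hold reads of other loci. In GENCODE v29, 9 of the 33 genes share exonic sequence with a gene on the opposite strand, and in 6 that gene had over 10% of the member's counts. They are PSMC1 with NRDE2, PSMC5 with FTSJ3, PSMA2 with MRPL32, ADRM1 with LAMA5, PSMD13 with SIRT3 and PSMD6 with PSMD6-AS2. Of 31 named pseudogene copies of 13 members, 19 had counts, at most 8.41% of the parent (PSMC1P1).

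Between the guides, no member was called on any day by edgeR. On day 5 no gene of 33 was called (0.138% of all genes were), 2 had an unadjusted p under 0.05, and DESeq2 called none. On day 6 none was called (0.214% of all genes), 4 had an unadjusted p under 0.05, and DESeq2 called 1, PSMA6. On day 7 none was called (0.0907% of all genes), 0 had an unadjusted p under 0.05, and DESeq2 called none. Over all days added together none was called (0.363% of all genes), 2 had an unadjusted p under 0.05, and DESeq2 called none. The medians of the set were -0.02, 0.09 and 0.07 on days 5, 6 and 7 and 0.02 over all days.

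Single members differed little between guides. Log2 fold changes of sgRELA over sgControl lay between -0.28 (PSMB5) and 0.30 (PSMC1) on day 5, between -0.19 (ADRM1) and 0.37 (PSMB3) on day 6, and between -0.10 (PSMD14) and 0.17 (PSMD7) on day 7. Their standard errors were 0.07 to 0.21. The groups did not overlap for 2 members lower in sgRELA on day 5, PSMC4 and PSMB5, where 5.17% of all genes did so. On day 6 they did not overlap for 6 members higher in sgRELA, PSMA2, PSMA5, PSMA6, PSMB3, PSMD2 and PSMD6 (5.91% of all genes). On day 7 that held for PSMB3, PSMD2 and PSMD7 (5.24% of all genes). PSMA6, at 112, 129.8 and 124 CPM in sgControl and 145, 168 and 159 in sgRELA on day 6, had the smallest p (0.37 ± 0.09, adjusted p = 0.0855, edgeR). With DESeq2 its adjusted p was 0.00628.

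PSMD1 (ENSG00000173692, chr2:231056864-231172827, plus strand) had the smallest p of the set over all days. It was at 105, 94.3 and 125 CPM on day 5, 82.0, 78.1 and 96.5 on day 6 and 146, 159.9 and 145 on day 7 in sgControl, and at 109, 129.5 and 117, 95.8, 104 and 108 and 172, 147 and 157 in sgRELA. The guides overlapped on each day. Added over days, sgRELA was higher in 3 of 3 sums without overlap, which held for 4 members and 6.34% of all genes. For 1 member and 5.94% of all genes sgRELA was lower without overlap. The PSMD1 difference was 0.14 ± 0.05 (adjusted p = 0.545, edgeR), which is not a call. With library replicate 2 alone the value was -0.000988.

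**Figure D5:**
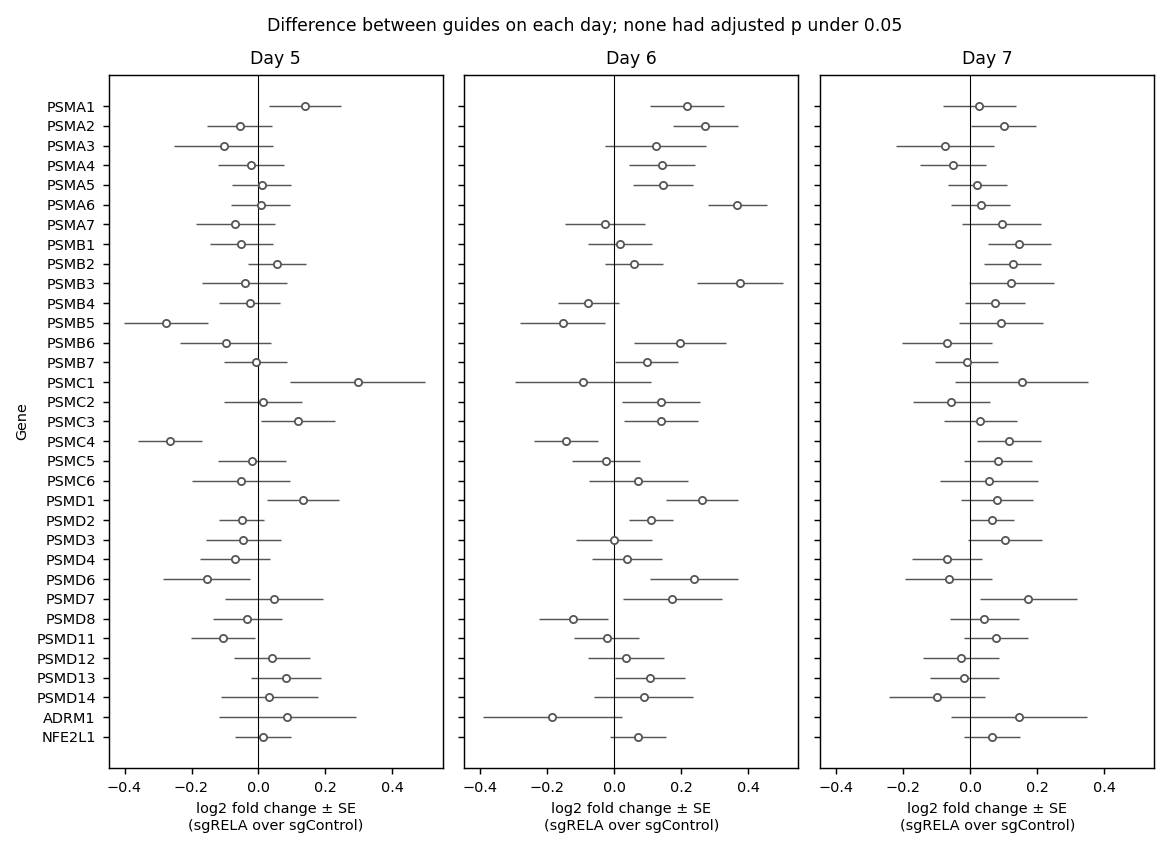
Log2 fold change ± SE of sgRELA over sgControl for each of the 33 genes on days 5, 6 and 7. Open circles mark genes with an adjusted p of 0.05 or more, which all of them had. The points scatter around 0, and those of PSMA6, PSMB3 and PSMA2 on day 6 lie farthest right relative to their error.

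Whether the course over days differed between guides was tested by the interaction of guide and day. None of the 33 genes was called by edgeR or by DESeq2, and 1 of 27553 genes was (0.00363%). The edgeR test gave PSMA6 an unadjusted p of 0.0112 and PSMC4 one of 0.0255, each with an adjusted p of 1, and no other member fell under 0.05. A larger number of calls in one guide than in the other is therefore not shown to be a difference between guides.

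Of 51 other genes of the pathway, 50 were tested (PSMB11 was not), and none was called between guides on any day or over all days by edgeR. Between days 6 and 7, 18 of 50 were called higher and 2 lower in sgControl (8.25% and 6.31% of all genes), and 16 and 2 in sgRELA (7.21% and 5.02%). The medians were 0.35 and 0.28, and by sign alone 40 and 43 of the 50 were higher. Between days 5 and 6, 3 were called higher and 12 lower in sgControl (3.29% and 5.58% of all genes), and 1 and 8 in sgRELA (2.57% and 4.34%). Between days 5 and 7, 9 were called higher and 7 lower in sgControl (6.65% and 6.36% of all genes), and 10 and 8 in sgRELA (6.35% and 6.06%).

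The genes of this list with the smallest p for a rise from day 5 to day 7 in sgControl were VCP, PSME3, PSME2 and UCHL5. VCP, the ATPase that extracts ubiquitinated proteins and NFE2L1 from the endoplasmic reticulum membrane, was at 299.5, 342 and 331 CPM on day 5 and 537, 506 and 541 on day 7 in sgControl. It rose by 0.70 there and by 0.49 in sgRELA (adjusted p = 2.75e-08 and 9.49e-06, edgeR), and had no dip on day 6. PSME3 and PSME2, subunits of proteasome activators, rose by 0.74 and 0.73 in sgControl and by 0.78 and 0.80 in sgRELA. UCHL5, a deubiquitinase that ADRM1 holds on the cap, went from 53.2, 48.2 and 57.0 CPM on day 5 to 85.6, 85.9 and 83.7 on day 7 in sgControl. Its change was 0.69 in sgControl and 0.53 in sgRELA, both called.

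The genes with the smallest p for a fall were chaperone genes of the stress response to unfolded and undegraded protein. DNAJB1, a partner of heat shock protein 70, was at 619, 909.6 and 835 CPM on day 5, 100.5, 91.3 and 120.0 on day 6 and 159.8, 151 and 156 on day 7 in sgControl. In sgRELA it was at 577, 770.0 and 782, 89.6, 100.5 and 87.9 and 153, 149.7 and 174. Day 5 stood far above the other days, by 2.34 and 2.16 log2 units over day 7 (day 7 against day 5: -2.34 and -2.16, adjusted p = 7.05e-14 and 4.15e-13, edgeR). HSPA1B fell from 54.2, 65.3 and 62.5 CPM on day 5 to 7.58, 4.71 and 4.58 on day 7 in sgControl, with -3.43 and -3.02 in the guides. HSPA1A, its near-identical copy, showed -3.00 and -3.32, and reads may have been split between the copies. BAG3, a co-chaperone, stood at 0.499 and 0.619 times its day-5 level on day 7. All 5 genes of that list were called lower on day 7 than on day 5 under both guides.

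A few other genes are given here that were chosen after their values were seen. The assembly chaperones POMP and PSMG1, which help to build the core, rose between days 6 and 7 by 0.98 and 1.03 in sgControl and by 0.53 and 0.98 in sgRELA, all called. Of the 9 assembly chaperone genes, 3 were called higher in that step under each guide. SEL1L and SYVN1, which form a ubiquitin ligase complex of the endoplasmic reticulum that handles NFE2L1 among other proteins, were the 2 that fell, by 1.27 and 0.76 in sgControl. In sgRELA they fell by 1.10 and 0.46. PSMB8 and PSMB9, catalytic subunits of the immunoproteasome, were at 76.9, 76.7 and 69.4 and 39.6, 30.4 and 30.1 CPM in sgControl on day 7 and at 82.6, 81.0 and 87.9 and 38.3, 40.9 and 36.8 in sgRELA. Over all days their log2 fold changes of sgRELA over sgControl were 0.20 and 0.24 (adjusted p = 0.308 and 0.512, edgeR), which did not pass. PSMB10, the third such subunit, had the opposite sign, -0.09 (adjusted p = 0.968, edgeR), at 11.8, 11.7 and 11.8 CPM in the sgControl sums and 12.8, 9.63 and 10.7 in those of sgRELA.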

How the data were processed

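RNA was measured by RamDA-seq in 36 libraries of 18 RNA samples, from 100 pg of RNA each. The authors deposited raw counts per gene, without normalization per the labels; the submitters' processing notes name cutadapt 1.18, STAR 2.7.9a and GRCh38, and the counting tool, annotation and strand setting are not given in the sources used here. The 2 libraries of a sample were added. The 18 sums were fitted in 1 model with 6 group means in edgeR 4.0.16 (R 4.3.3; TMM, filterByExpr with a minimum count of 10, quasi-likelihood F test). Benjamini-Hochberg adjustment ran over all genes of each comparison, and a call is an adjusted p under 0.05. The guides were also compared over all days, as 3 sums against 3. The interaction was an F test on 2 coefficients. Standard errors come from the F statistic. No test was made of the set as a list. The code was tested on simulated data.

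The members and lists were chosen with earlier results of these data known. Levels of every sample are given for NFE2L1, the 3 catalytic subunits, the 2 subunits per role group with the lowest p for day 7 against day 5 in sgControl and the member with the lowest p between guides. Further members are described by role. Outside that rule, sample levels are also given in full for PSMD14 and in part for PSMA1, PSMD4 and ADRM1. Of the other pathway genes, up to 4 per direction were named by the same p. Symbols matched 57693 of 74628 rows, and positions and exon lengths are those of GENCODE v29.

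Totals of 18769530 to 29503934 counts per sample limit the precision, with no molecular identifiers named. Alternatives were DESeq2 1.42.0, other scalings, no filter, single libraries, a replicate block and samples left out.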

Additional observations from a re-analysis of the deposited data

Results flagged for a closer look

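Within each guide and day the 6 libraries were searched for one whose summed level stood apart from the other 5 by Dixon's criterion, in 30 searches over the role groups. Chance alone passes about 1 in 20, 6 libraries come from 3 RNA samples, and 3 passed. The 7 alpha ring genes summed to 618.69 CPM in library 1 of sgControl day 5 replicate 2, below the others of that group, and to 385.921 CPM in library 1 of sgControl day 6 replicate 1. These are the 2 libraries with few detected genes. The 7 beta ring genes summed to 964.643 CPM in library 1 of sgControl day 7 replicate 3, again the lowest of its group.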

How the results depend on the processing

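Of the fold changes of named genes recomputed under the alternatives, 1139 kept direction and call, 119 kept the direction and lost the call, and 1 reversed. Of the medians of the set, 137 moved by less than the spread between replicates and 9 by more. Those 9 kept their sign, and 1 of the 137, a median between guides near 0, did not. At 7586205 to 16124473 counts per library, single libraries called fewer members between days. With library replicate 1 alone, edgeR called 4 members lower from day 5 to day 6 in sgControl and 0 in sgRELA, 3 and 3 higher from day 5 to day 7, and 11 higher from day 6 to day 7 in sgRELA. With library replicate 2 alone it called 6 and 1 lower from day 5 to day 6 and 10 from day 5 to day 7 in sgControl (9 of them higher), and PSMD1 over all days was -0.000988179. With library totals in place of TMM, 3 members were called lower from day 5 to day 6 in sgRELA. DESeq2 called 1 member between guides on day 6. Left-out samples gave 11 to 16 calls from day 5 to day 6 in sgControl and 2 to 5 in sgRELA (3 without sgRELA day 5 replicate 1 or day 6 replicate 3, 2 without day 5 replicate 2 or day 6 replicate 2). They gave 11 to 15 from day 5 to day 7 in sgControl (11 without day 5 replicate 3), and 14 to 18 in sgRELA. From day 6 to day 7 they gave 24 to 30 and 25 to 30, and between guides 0. The cause was not tested. Over all genes, calls from day 6 to day 7 in sgControl ran from 1879 with library replicate 1 alone to 4791 with DESeq2. From day 5 to day 6 they ran from 430 to 3447 in sgControl and from 196 to 2883 in sgRELA, under those same settings.

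Same-numbered samples did not deviate together, with r of -0.00946 to 0.0600 between guides on a day and -0.112 to 0.0447 between days within a guide. With 3 samples per group, these values cannot show whether the numbers pair samples. With a replicate block, 16, 28 and 18 members were called in sgControl and 5, 29 and 19 in sgRELA, for day 6 against 5, 7 against 6 and 7 against 5, and 0 between guides.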
